A study of Homo sapiens with 12 samples.

Results

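The respiratory chain and the ATP synthase were followed as 95 genes whose symbols mark a subunit of complexes I to V or a protein that assembles or restrains one, out of 6777 genes tested. By symbol, 34 of them belong to complex I (NADH dehydrogenase), 4 to complex II (succinate dehydrogenase), 9 to complex III (the cytochrome bc1 complex), 12 to complex IV (cytochrome c oxidase) and 18 to complex V (ATP synthase). A further 4 are UQCC genes for complex III assembly, 1 is the electron carrier cytochrome c (CYCS) and 13 are the mitochondrially encoded mRNAs, whose symbols start with MT-. NDUFA4 carries a complex I name but encodes a protein now placed in complex IV, and it was counted there. ATP5IF1, an inhibitor of the ATP synthase, was counted with complex V, and COX7A2L, which helps to join complexes into supercomplexes, with complex IV.

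The measurements came from MDA-MB-231, an established human triple-negative breast cancer cell line. The cells had received 10 nM AZD0095, an inhibitor of the lactate exporter MCT4, or its solvent DMSO for 4 h, and the series asks how lactate held inside the cells bears on transcription and translation. Each treatment had 3 RNA-seq libraries and 3 ribosome profiling libraries, 12 in all, and no gene was edited in any of them. Nothing in the labels tells whether replicates came from separate cultures, and the p-values therefore reflect only how far libraries of a group lie apart, which can be technical. Values are FPKM, in which fragments are scaled to the length of the gene and to the mapped reads of the library, and only genes above 1 FPKM in every library are listed. All 7 markers set for the line, vimentin (VIM) and CD44 among them, were listed, with 4909 to 5124 FPKM in sum in AZD0095 RNA libraries and 4765 to 4825 FPKM in DMSO ones. Of 6 luminal epithelial markers 1 was listed (EPCAM, 11.6 to 12.5 FPKM with AZD0095 and 9.33 to 10.7 FPKM with DMSO), and the 3 leukocyte and 4 fibroblast markers were not listed above 1 FPKM.

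The respiratory chain passes electrons from NADH and succinate to oxygen, pumps protons across the inner mitochondrial membrane as it does so, and lets the ATP synthase use the gradient. Its subunits come from separate genomes. Nuclear genes are read by cytosolic ribosomes and their products imported, while a small core of subunits is encoded in mitochondrial DNA, transcribed there as long polycistronic RNAs and translated by mitochondrial ribosomes on the inner membrane. The factors NRF1, the ETS protein GABP and YY1 are textbook regulators of the nuclear share.

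Promoter sequences were available for 67 of the 82 nuclear genes, as 80 windows of 300 bases that run from 250 bases before the transcription start to 50 after it. On both strands, GCATGCG, a core of the NRF1 motif, was present in 17 of these windows (21.25%), against 6.22% of 8293 windows of listed genes and 3.91% of all 35116 windows. CCGGAAG, a core of the ETS motif, was found in 27.5% of the windows, against 19.3% and 10.3%, and GATGGCG, a core of the YY1 motif, in 15% against 8.07% and 4.203%. At least 1 of the 3 motifs was present in 36 of the 67 genes, and all 3 in ATP5PF, SDHB and SDHD. A match is a string of letters and not a site shown to be bound. The windows of 4 genes are printed to show how these letters are placed. They belong to COX6A1, the nuclear gene with the highest RNA level in DMSO cells, to SDHB, which holds all 3 motifs, to CYCS, whose RNA had the lowest fold change among the 95, and to NDUFA9, with the lowest level in complex I. The sequences are RefSeq's, of GRCh38.p14, 5′ to 3′ on the strand of the gene, and capitals mark the matches.
COX6A1, chr12:120437863-120438162, plus strand: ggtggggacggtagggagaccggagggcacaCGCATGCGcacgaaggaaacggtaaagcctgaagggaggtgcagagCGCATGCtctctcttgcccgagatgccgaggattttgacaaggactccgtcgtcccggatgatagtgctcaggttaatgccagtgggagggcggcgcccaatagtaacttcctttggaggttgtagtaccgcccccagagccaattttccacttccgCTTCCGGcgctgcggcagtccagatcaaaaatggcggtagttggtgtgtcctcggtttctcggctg
SDHB, chr1:17053983-17054282, minus strand: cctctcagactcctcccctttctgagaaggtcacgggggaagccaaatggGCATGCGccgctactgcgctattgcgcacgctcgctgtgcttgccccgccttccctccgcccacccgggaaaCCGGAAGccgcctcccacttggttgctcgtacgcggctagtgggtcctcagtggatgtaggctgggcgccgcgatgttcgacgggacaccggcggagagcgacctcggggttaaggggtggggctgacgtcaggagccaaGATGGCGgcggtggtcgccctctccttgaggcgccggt
CYCS, chr7:25125211-25125510, minus strand: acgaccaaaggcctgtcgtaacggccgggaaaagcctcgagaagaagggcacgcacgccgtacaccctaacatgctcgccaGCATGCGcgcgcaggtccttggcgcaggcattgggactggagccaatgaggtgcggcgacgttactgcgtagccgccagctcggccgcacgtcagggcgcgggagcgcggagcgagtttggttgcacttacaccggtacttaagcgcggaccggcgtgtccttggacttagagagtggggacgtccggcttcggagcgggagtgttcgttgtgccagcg
NDUFA9, chr12:4648864-4649163, plus strand: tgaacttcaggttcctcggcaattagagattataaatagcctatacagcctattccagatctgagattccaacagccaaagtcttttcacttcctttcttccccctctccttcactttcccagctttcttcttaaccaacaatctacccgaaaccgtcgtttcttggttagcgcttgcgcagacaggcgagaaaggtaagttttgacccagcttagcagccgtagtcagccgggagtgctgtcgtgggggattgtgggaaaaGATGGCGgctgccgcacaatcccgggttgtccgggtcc

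In RNA, AZD0095 left the respiratory chain close to its DMSO level. None of the 95 genes passed the test (limma, adjusted p under 0.05), where 8.04% of all tested genes did (545 genes, 341 higher and 204 lower). At an unadjusted p under 0.05, 3 of the 95 were reached, against 24.2% of all genes. The median log2 fold change of the 95 was 0.04, beside 0.01 over all genes, and the values ran between -0.26 for CYCS and 0.37 for UQCC5. AZD0095 and DMSO values did not overlap for 11 of the 95, against 29.2% of all genes, with AZD0095 above for 9 (SDHC, UQCRC1, UQCRH, UQCC3, COX6C, ATP5F1B and ATP5MK among them) and below for 2 (NDUFA2 and NDUFS6). By complex the median log2 fold change was 0.04 for complexes I, II and III, 0.05 for complex IV, 0.00 for complex V and 0.07 for the mitochondrially encoded genes. The 73 listed genes for mitochondrial ribosomal proteins, set beside them for scale, had a median of -0.02 and 1 call. Library choice mattered for the count of 0. With replicate 1 of both treatments as a term in the fit, 8 of the 95 were called (UQCRH, UQCC3, MT-CO2, MT-ND4 and MT-ATP8 higher, CYCS, MT-ND3 and MT-CO3 lower), where 24.5% of all genes were. Without AZD0095 replicate 1 it was 5 of the 95 (MT-ND2, MT-ND4, MT-ND5 and MT-ATP8 higher, CYCS lower), where 16.4% of all genes were.

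**Figure D1:**
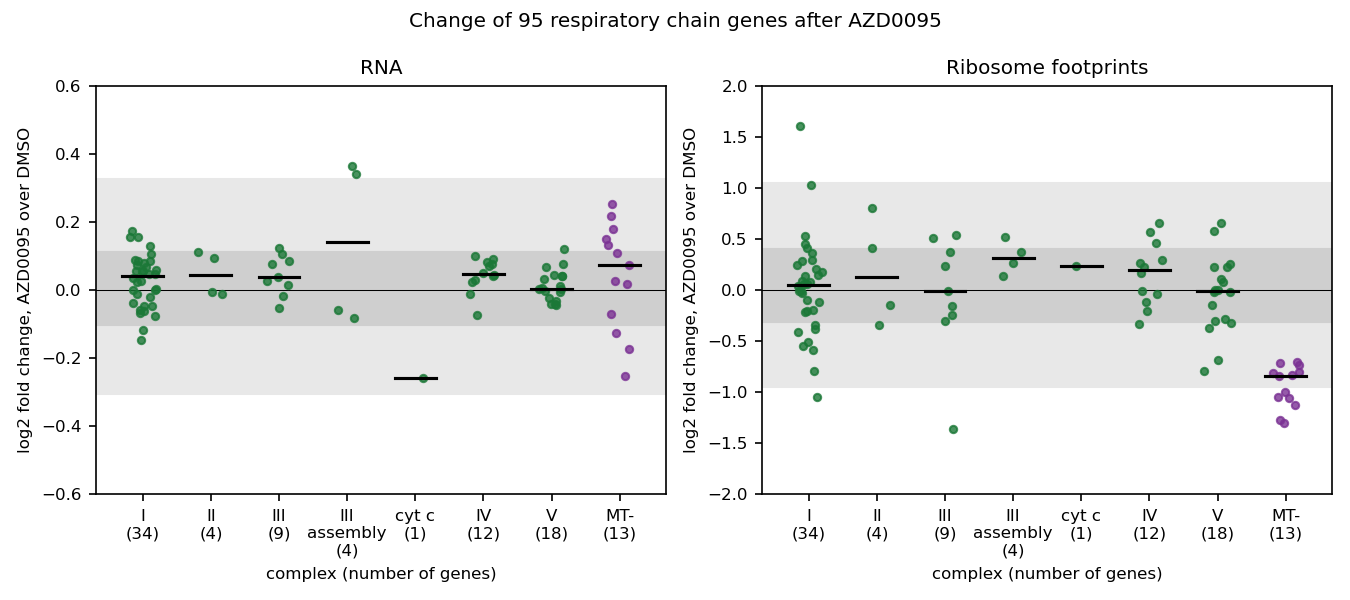
Log2 fold change of each of the 95 genes, AZD0095 over DMSO, by complex, for RNA (left) and ribosome footprints (right, on a wider axis). Each point is a gene, the black line is the median of the complex, and the grey bands hold the middle 50% and 90% of all 6777 genes; the 13 MT- genes (purple) lie between -1.31 and -0.70 in footprints and between -0.25 and 0.25 in RNA.

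Complex I takes electrons from NADH, through a peripheral arm of flavin and iron-sulfur subunits and a membrane arm. NDUFS5, an accessory subunit, had the highest RNA level of its 34 nuclear genes, at 184, 171 and 190 FPKM with AZD0095 and 166, 183 and 173 FPKM with DMSO. NDUFA9, an accessory subunit near the quinone site, had the lowest, at 4.92, 3.49 and 3.94 FPKM with AZD0095 and 4.74, 4.195 and 4.01 FPKM with DMSO. Both sets of values overlapped. NDUFA2, an accessory subunit of the peripheral arm, had 26.3, 25.8 and 25.7 FPKM with AZD0095 and 27.2, 29.8 and 29.5 FPKM with DMSO. Every AZD0095 value lay below every DMSO value, and the difference on the log2 scale, -0.15 ± 0.06 (SE), missed the threshold (limma adjusted p = 0.20). NDUFS6, a zinc-binding accessory subunit, was at 44.1, 44.9 and 46.9 FPKM with AZD0095 and 48.3, 50.2 and 49.1 FPKM with DMSO, again without overlap and without a call (-0.12 ± 0.05, limma adjusted p = 0.23). For NDUFV1, the core subunit that binds NADH and flavin, the values were 52.4, 55.0 and 56.4 FPKM with AZD0095 and 47.1, 52.8 and 49.6 FPKM with DMSO, or 0.13 ± 0.06 on the log2 scale (limma adjusted p = 0.25). NDUFS1, the largest iron-sulfur core subunit, had 57.1, 53.9 and 52.1 FPKM with AZD0095 and 58.5, 51.1 and 48.5 FPKM with DMSO, which overlapped. Across the 34 genes 22 had a positive and the others a negative or zero RNA log2 fold change, between -0.15 and 0.17.

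Complex II is encoded by nuclear genes alone and also serves the citric acid cycle. SDHA, its flavoprotein, had 64.0, 68.1 and 67.6 RNA FPKM with AZD0095 and 59.05, 64.4 and 63.5 FPKM with DMSO. SDHB, its iron-sulfur subunit, had 97.2, 92.1 and 90.8 FPKM with AZD0095 and 92.2, 96.3 and 93.9 FPKM with DMSO. Both pairs of groups overlapped. SDHC, a membrane anchor that helps to hold the quinone, had 76.2, 76.1 and 81.8 FPKM with AZD0095, all above the 75.8, 67.9 and 72.9 FPKM with DMSO, which is 0.11 ± 0.06 (SE) on the log2 scale (limma adjusted p = 0.31).

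Complex III passes electrons from quinol to cytochrome c. UQCRH, the hinge subunit beside cytochrome c1, had the smallest p of the complex. It stood at 154, 153 and 151 RNA FPKM with AZD0095 and 136, 143 and 141 FPKM with DMSO, with 0.12 ± 0.04 (SE) as the log2 fold change (limma adjusted p = 0.14). The core subunit UQCRC1 also had every AZD0095 value (82.2, 82.2 and 80.6 FPKM) above every DMSO value (72.8, 75.7 and 78.8 FPKM), at 0.11 ± 0.05 (limma adjusted p = 0.24). UQCRB, a small subunit near the quinone site, had 132, 122 and 131 FPKM with AZD0095 and 121, 127 and 114 FPKM with DMSO, which overlapped (0.09 ± 0.06, limma adjusted p = 0.42). UQCRFS1, the Rieske iron-sulfur protein, had 40.9, 38.9 and 41.7 FPKM with AZD0095 and 39.9, 40.5 and 39.8 FPKM with DMSO, which overlapped. CYC1, cytochrome c1, had the highest level (161, 155 and 161 FPKM with AZD0095, 152, 155 and 158 FPKM with DMSO) and UQCR11, a small accessory subunit, the lowest (20.8, 19.4 and 19.2 FPKM with AZD0095, 19.2, 20.6 and 20.4 FPKM with DMSO).

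Among the 4 assembly genes of complex III, UQCC3, which acts on newly made cytochrome b, came nearest to a call of all 95 genes. Its RNA was at 7.95, 7.30 and 8.44 FPKM with AZD0095 and 5.66, 6.51 and 5.89 FPKM with DMSO. The groups did not overlap, and the difference was 0.34 ± 0.09 (SE) on the log2 scale (limma adjusted p = 0.056). Over 15 other settings it stayed between 0.30 and 0.40 with an adjusted p of 0.014 to 0.18, and it passed the threshold in 3 of them. The gene lies on chromosome 11 of GRCh38.p14, positions 62671673 to 62673686. UQCC5 had 5.28, 5.41 and 6.39 FPKM with AZD0095 and 3.09, 3.88 and 5.96 FPKM with DMSO, where the third DMSO library reached into the AZD0095 range (0.37 ± 0.18, limma adjusted p = 0.26). UQCC1, the human counterpart of a yeast assembly factor, and UQCC2, its partner, had RNA log2 fold changes of -0.08 and -0.06.

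CYCS, cytochrome c, carries electrons between complexes III and IV and also takes part in apoptosis. Its RNA was at 158, 119 and 111 FPKM with AZD0095 and 165, 152 and 143 FPKM with DMSO, so 1 of 3 AZD0095 libraries lay inside the DMSO range. On the log2 scale the difference was -0.26 ± 0.12 (SE), which missed the threshold (limma adjusted p = 0.24). Without AZD0095 replicate 1 it was -0.41 ± 0.07 (limma adjusted p = 0.0052). The first replicates of both treatments were also the highest CYCS values of their groups, and with replicate 1 of both treatments as a term in the fit the log2 fold change of -0.26 had an adjusted p of 0.0093. The call for CYCS thus depended on how those libraries were treated. The gene lies on chromosome 7, positions 25118656 to 25125260.

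Complex IV hands electrons to oxygen. COX6A1, the common isoform of subunit 6A, had the highest nuclear RNA level in DMSO cells, at 449, 479 and 499 FPKM with AZD0095 and 417, 480 and 510 FPKM with DMSO. NDUFA4 had the lowest of the complex, at 35.5, 35.9 and 37.6 FPKM with AZD0095 and 33.9, 33.7 and 36.1 FPKM with DMSO. COX4I1, the common isoform of the nuclear subunit 4, was at 163, 148 and 158 FPKM with AZD0095 and 141, 151 and 145 FPKM with DMSO (log2 fold change 0.10 ± 0.06 SE, limma adjusted p = 0.31). These 3 genes overlapped between treatments. COX5A, which contacts subunit 4, had 127, 129 and 125 FPKM with AZD0095, inside the DMSO range of 112 to 134 FPKM. COX6C was the complex IV gene whose groups did not overlap, with 140, 131 and 133 FPKM with AZD0095 and 121, 130 and 129 FPKM with DMSO (0.09 ± 0.05, limma adjusted p = 0.34). COX8A, the common isoform of subunit 8, had 196, 181 and 180 FPKM with AZD0095 and 169, 175 and 182 FPKM with DMSO, which overlapped (0.08 ± 0.05, limma adjusted p = 0.40).

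Complex V makes ATP on the F1 head, driven by a membrane rotor. ATP5F1B, the catalytic beta subunit, led its RNA levels at 485, 467 and 501 FPKM with AZD0095 and 467, 453 and 465 FPKM with DMSO. Those groups were apart by less than 1 FPKM at their nearest values, and the difference was 0.07 ± 0.04 (SE) on the log2 scale (limma adjusted p = 0.40). ATP5F1A, the alpha subunit, had 269, 245 and 248 FPKM with AZD0095 and 259, 254 and 246 FPKM with DMSO, a log2 fold change of 0.00 ± 0.05. ATP5F1E, the epsilon subunit, was the lowest, at 18.3, 15.6 and 16.4 FPKM with AZD0095 and 14.9, 19.2 and 16.6 FPKM with DMSO. The rotor ring gene trio ATP5MC1, ATP5MC2 and ATP5MC3, whose mature proteins are the same, had log2 fold changes of 0.01, -0.04 and 0.04. ATP5MK, a small membrane subunit, lay higher in each AZD0095 library (136, 139 and 145 FPKM) than in any DMSO one (129, 135 and 133 FPKM) without a call (0.08 ± 0.05, limma adjusted p = 0.36), and the inhibitor gene ATP5IF1 had 0.12 ± 0.08 (limma adjusted p = 0.40).

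Genes that build and supply the chain gave 2 calls in RNA over 4 lists, against the 8.04% called over all genes, and these calls describe single genes and not the lists. Of 49 assembly factors for the complexes 33 were tested, and COA7, a complex IV assembly factor of the intermembrane space, fell to 11.3 ± 0.619 FPKM with AZD0095, against 16.2 ± 0.969 FPKM with DMSO (SD, n = 3 each; log2 fold change -0.48 ± 0.08 SE, limma adjusted p = 0.012). Its call was lost without DMSO replicate 2 (-0.50, limma adjusted p = 0.060) and without AZD0095 replicate 2 (-0.47, limma adjusted p = 0.063). No other assembly factor passed, and the next, ECSIT, known from complex I assembly, had -0.25 (limma adjusted p = 0.074). Of 18 nuclear regulators 12 were tested, and PRKAA2, a catalytic subunit of the energy sensor AMPK, rose to 3.02 ± 0.330 FPKM with AZD0095, against 1.99 ± 0.135 FPKM with DMSO (SD, n = 3 each; 0.42 ± 0.10 SE, limma adjusted p = 0.033). That call held without AZD0095 replicate 1 and was lost without each of the other 5 RNA libraries (0.39 to 0.47, limma adjusted p of 0.072 to 0.10). PPRC1, a coactivator related to PGC-1alpha, had -0.30 (limma adjusted p = 0.053). Of 36 genes for mitochondrial gene expression 25 were tested and none was called. The packaging and transcription factor of mitochondrial DNA, TFAM, had 34.2 ± 5.48 FPKM with AZD0095 and 46.9 ± 4.92 FPKM with DMSO (SD, n = 3 each; -0.45 ± 0.12 SE, limma adjusted p = 0.056). Without AZD0095 replicate 1 TFAM was called at -0.57 ± 0.09 (limma adjusted p = 0.0033), and it also passed with median centring (limma adjusted p = 0.033). The elongation factor GFM1 had -0.29 (limma adjusted p = 0.074) and passed without the same library (-0.32, limma adjusted p = 0.038). Of 34 import genes 29 were tested with 0 calls, the smallest p-values being those of TOMM34 (0.15, limma adjusted p = 0.12) and TOMM40, the pore of the outer membrane (-0.15, limma adjusted p = 0.17). The medians of the 4 lists in this order were -0.04, -0.02, -0.06 and 0.01, beside 0.01 over all genes. None of their genes was called in footprints, where 0% of all genes were.

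The mitochondrially encoded mRNAs were far more abundant than the nuclear ones. The labels name both total RNA and polyA RNA for the RNA libraries, which bears on these levels and on every footprint level per RNA level of an MT- gene, and its part was not tested. In DMSO RNA libraries the 13 genes had a median of 3379 FPKM, between 678 (MT-ND6) and 11996 FPKM (MT-CO2), against a median of 61.4 FPKM for the 82 nuclear genes. Their share of all listed FPKM was 9.46%, 14.9% and 14.5% in AZD0095 RNA libraries and 10.3%, 13.9% and 13.3% in DMSO ones. Replicate 1 was low under both treatments. Within replicate 1 the AZD0095 share was the smaller, and within replicates 2 and 3 the AZD0095 shares were the larger, so the mean ratio of 1.04 between treatments had no single direction. In bulk RNA fewer mitochondria, fewer cells that hold them and less RNA in each cannot be told apart. The nuclear genes took 1.68%, 1.56% and 1.61% with AZD0095 and 1.58%, 1.60% and 1.60% with DMSO.

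**Figure D2:**
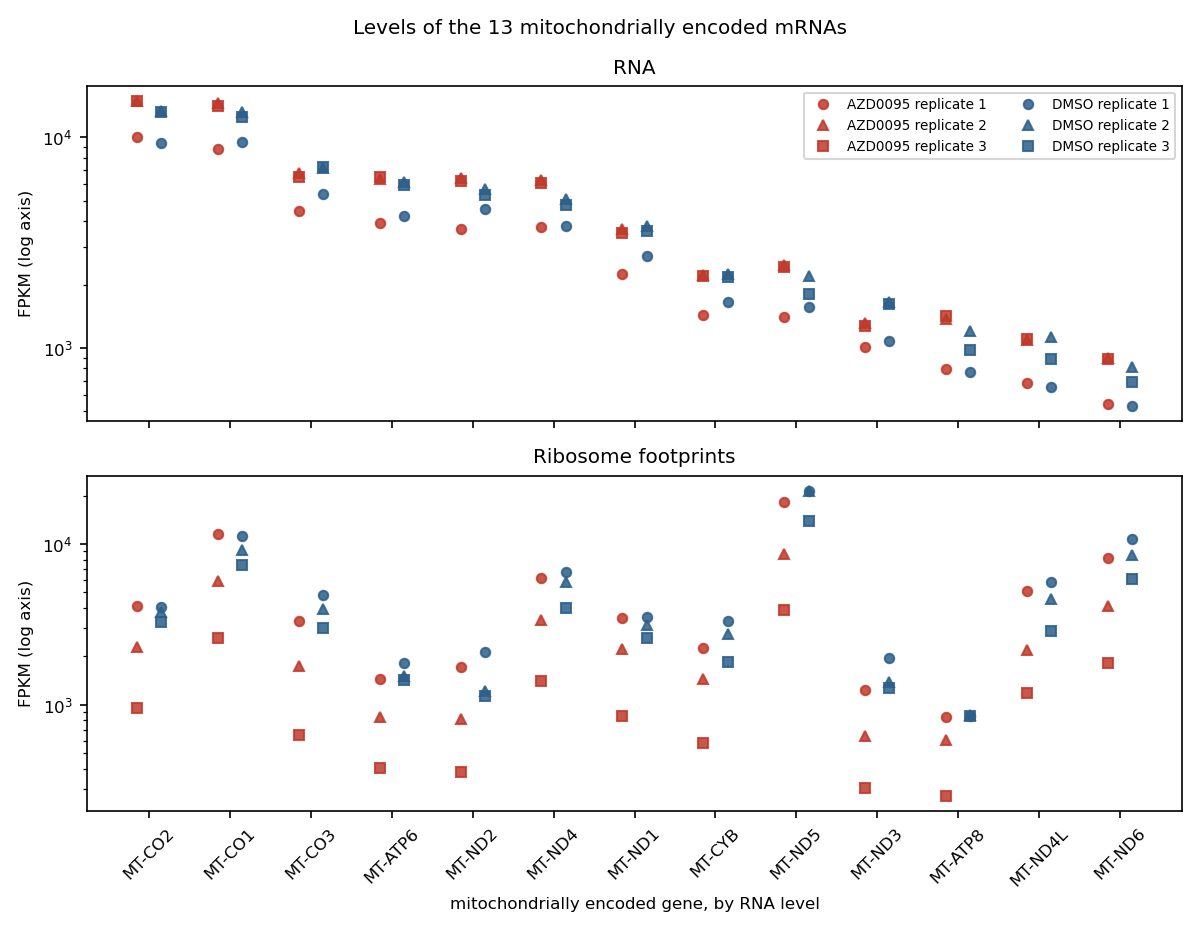
FPKM on a log axis of the 13 mitochondrially encoded mRNAs in each library, RNA above and ribosome footprints below, AZD0095 in red left of DMSO in blue, with a symbol per replicate. In RNA both first replicates lie low; in footprints AZD0095 replicate 3 lies at 0.165 to 0.317 of the DMSO mean for every gene.

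Single MT- genes were not called in RNA and the groups of all 13 overlapped. Whole libraries moved together, so the make-up of the mitochondrial RNA was also compared. For 4 of the 13 genes the share did not overlap between treatments, where the RNA FPKM groups of 29.2% of all genes did not. That is not a like comparison, since a share takes out the library spread that the 13 genes have in common. Shares of 1 sum depend on one another, so these genes are not separate evidence. MT-CO3, subunit 3 of complex IV, made up 10.4%, 9.88% and 9.67% of the summed MT- FPKM with AZD0095 and 11.7%, 11.3% and 11.9% with DMSO. MT-ND1, a complex I subunit at the quinone site, made up 5.24%, 5.39% and 5.22% with AZD0095 and 5.94%, 5.98% and 5.93% with DMSO. The share of MT-CYB, cytochrome b of complex III, averaged 3.30% with AZD0095 and 3.57% with DMSO. In these 3 every AZD0095 library lay below every DMSO library. MT-ND4, a proton-pumping subunit of complex I, went the other way, at 8.78%, 9.23% and 9.10% with AZD0095, above the 8.23%, 8.03% and 7.85% with DMSO.

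With each library's mean log2 level of the 13 genes held equal, a scaling chosen after seeing the data, 3 of the 95 genes passed in RNA, where 8.17% of all genes did. All 3 are MT- genes. The scaling moved the 13 MT- genes alone and took out the library spread they share, while all other genes kept their deposited values. The share over all genes is therefore not a like comparison. MT-ND4 was higher with AZD0095 (log2 fold change 0.17 ± 0.03 SE, limma adjusted p = 0.020), and MT-ND1 (-0.17 ± 0.03, adjusted p = 0.016) and MT-CO3 (-0.21 ± 0.05, adjusted p = 0.026) were lower. These are changes relative to the other mitochondrial mRNAs. At the deposited scale the same genes had 0.22 (adjusted p = 0.55), -0.13 (adjusted p = 0.74) and -0.17 (adjusted p = 0.58), and without AZD0095 replicate 1 MT-ND1 and MT-CO3 turned to 0.10 and 0.02. On the mitochondrial genome MT-ND1 spans positions 3307 to 4262, MT-CO3 9207 to 9990 and MT-ND4 10760 to 12137, all on the same strand.

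Footprints of the mitochondrial mRNAs were lower with AZD0095 in all 13 genes, by log2 fold changes between -1.31 (MT-CO3) and -0.70 (MT-ND1) with a median of -0.84, while the 82 nuclear genes had a median of 0.06. No gene was called in footprints, neither among the 95 nor among all 6777 (0% called, lowest limma adjusted p of 0.31). At an unadjusted p under 0.05, 8 of the 13 were lower, where 3.72% of all genes were. The 13 share their libraries and organelle and are not separate evidence. MT-CO3 had 3343, 1753 and 648 footprint FPKM with AZD0095 and 4799, 3960 and 3020 FPKM with DMSO (-1.31 ± 0.43 SE, limma unadjusted p = 0.010). MT-ND3, a small complex I subunit, had 1237, 645 and 306 FPKM with AZD0095 and 1965, 1383 and 1266 FPKM with DMSO (-1.27 ± 0.39, limma unadjusted p = 0.0068). MT-ND3 and MT-ATP8 were the 2 genes whose AZD0095 values all lay below the DMSO values, where 5.77% of all genes did. In the other 11 AZD0095 replicate 1 lay within or above the DMSO range.

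Per the labels, lysates for ribosome profiling had nuclei and mitochondria removed before digestion, so the organelle RNA left in each lysate is a remainder. That remainder could be counted. Footprint FPKM values moved in steps of whole reads, which gave the depth of each library and, once the counted window was taken as 29 bases longer than the annotated gene (32 where its length is no multiple of 3), whole reads within 0.03 for 7 MT- genes in all 6 libraries. The other 6 genes came out in fractions, yet as neighbouring pairs they summed to whole reads, MT-ATP8 with MT-ATP6, MT-ND4L with MT-ND4 and MT-ND5 with MT-ND6. Within the first pair 46 annotated bases are shared and within the second 7, while MT-ND5 and MT-ND6 abut at position 14148 on opposite strands. The deposited values thus hold reads divided between neighbours, and no label or file states the strand used in counting. Levels of single genes in these pairs are therefore uncertain.

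The 13 genes together held 11556, 9059 and 9110 reads in AZD0095 footprint libraries and 11511, 8959 and 11456 reads in DMSO ones. The libraries as a whole held 141122, 217366 and 501351 reads with AZD0095 and 123859, 107087 and 192324 with DMSO. Mitochondrial reads thus differed by 1.29-fold between the highest and the lowest library while total reads differed by 4.68-fold. As shares, mitochondrial reads made up 8.19% (95% Wilson interval 8.05 to 8.33%), 4.17% (4.08 to 4.25%) and 1.82% (1.78 to 1.85%) with AZD0095 and 9.29% (9.13 to 9.46%), 8.37% (8.20 to 8.53%) and 5.96% (5.85 to 6.06%) with DMSO. These intervals cover counting error only. The deeper the library, the smaller was the mitochondrial share in AZD0095 libraries, and the deepest of the DMSO libraries also had the smallest share of its group. The shallowest DMSO library (107087 reads) had 8.37%, below the 9.29% of the deeper DMSO replicate 1 (123859 reads). The ratio of mean shares of listed FPKM was 0.621, and it was 0.803 without AZD0095 replicate 3 and 0.404 without AZD0095 replicate 1. The part of depth and of the removal of mitochondria in the footprint difference was not tested.

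**Figure D3:**
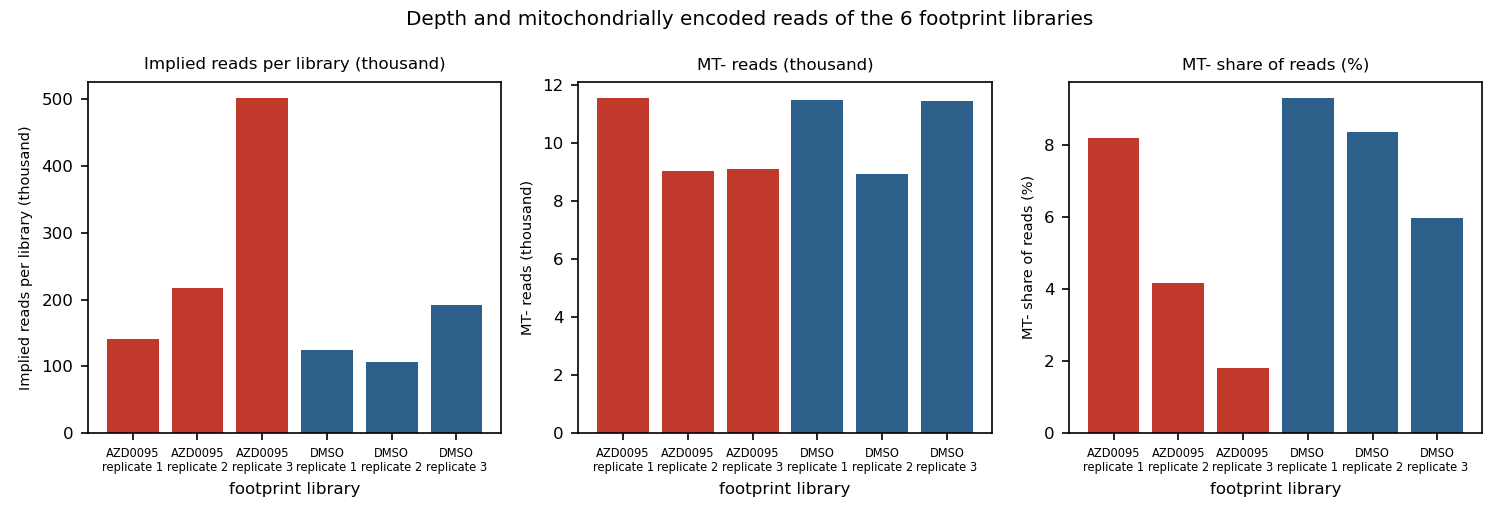
Implied reads per footprint library, reads on the 13 MT- genes, and the share of the second in the first, with AZD0095 libraries in red left of DMSO libraries in blue. Total reads range from 107087 to 501351 while MT- reads range from 8959 to 11556.

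Reads per gene showed how the footprints spread over the organelle's mRNAs. MT-CO1, the catalytic subunit of complex IV, held 2570, 2003 and 2038 reads with AZD0095 and 2198, 1544 and 2243 with DMSO. That was 22.2%, 22.1% and 22.4% of mitochondrial reads with AZD0095, each above the 19.1%, 17.2% and 19.6% with DMSO. MT-CO3 held 385, 311 and 265 reads with AZD0095 and 485, 346 and 474 with DMSO, or 3.33%, 3.43% and 2.91% against 4.21%, 3.86% and 4.14%. The pair MT-ND4L and MT-ND4 held 12.6%, 13.1% and 13.02% with AZD0095 and 12.2%, 11.6% and 11.0% with DMSO, and the pair MT-ND5 and MT-ND6 held 46.5%, 43.6% and 44.7% with AZD0095 and 48.6%, 52.8% and 48.5% with DMSO. In each of these 4 units the treatments did not overlap, and in the other 6 they did. Over all genes the footprint FPKM groups of 13% did not overlap, and in FPKM 2 of the 13 MT- genes did not. Shares of mitochondrial reads take out the library spread these genes have in common, so they are not like either count. They also depend on one another. MT-CO3 thus had the smaller share with AZD0095 in RNA and in footprint reads, and the pair that holds MT-ND4 had the larger share of footprint reads. Other genes did not match between the assays. MT-ND1, lower in RNA share, held 4.17%, 5.30% and 4.65% of footprint reads with AZD0095 and 3.72%, 3.71% and 4.31% with DMSO, which overlapped. MT-CYB also overlapped in footprint reads, while the RNA shares of MT-CO1, MT-ND5 and MT-ND6 overlapped. With 3 libraries a group, an exact two-sided permutation test of a single share cannot go below p = 0.10, so these shares are given without a call.

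**Figure D4:**
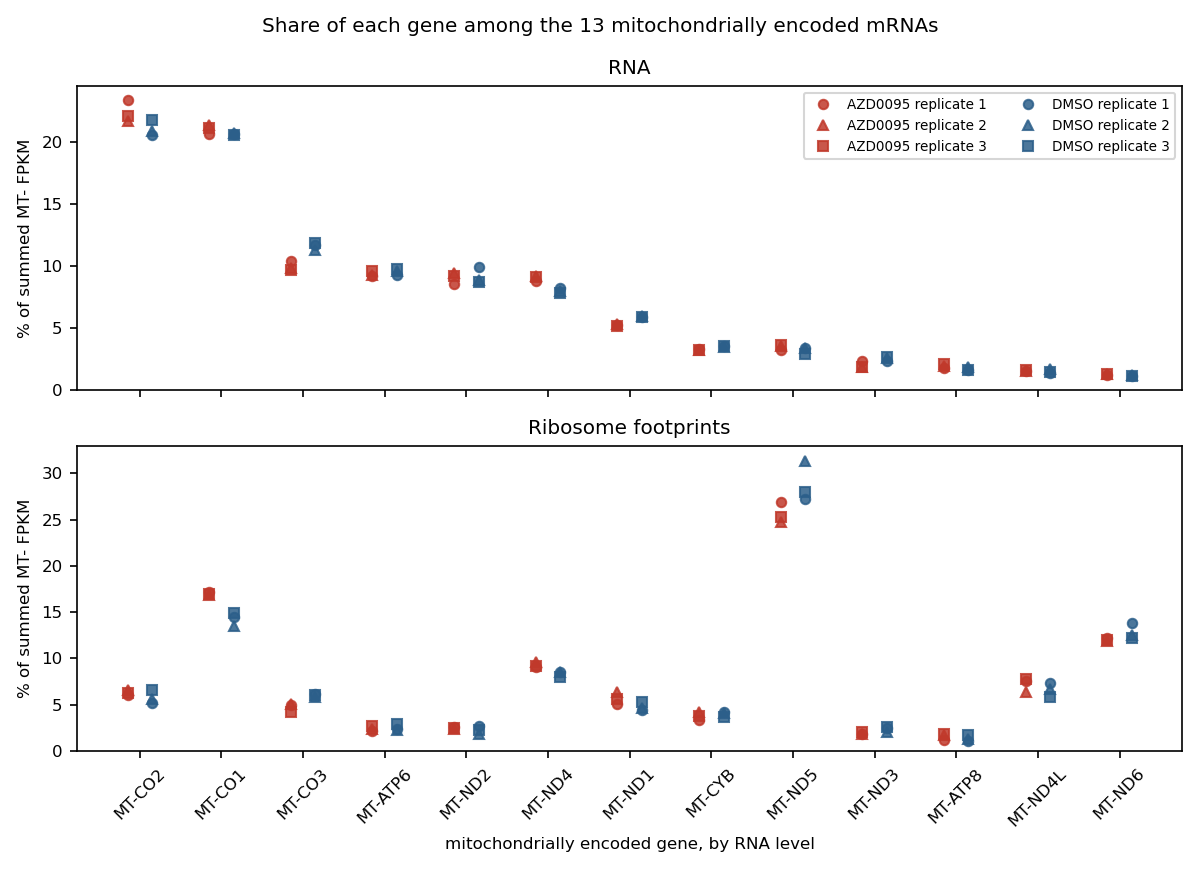
Share of each mitochondrially encoded mRNA in the summed FPKM of all 13, per library, RNA above and footprints below, AZD0095 in red left of DMSO in blue. MT-CO3 lies lower and MT-ND4 higher with AZD0095 than with DMSO in both panels (footprint values of MT-ND4 alone are uncertain, since reads were divided with its neighbour), and MT-ND5 holds 24.8% to 31.4% of footprints but 2.97% to 3.63% of RNA.

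Among nuclear genes, 10 of 82 reached an unadjusted p under 0.05 in footprints, 4 higher and 6 lower, against 7.82% of all genes (4.1% higher and 3.72% lower), and 11 of 82 had groups that did not overlap, against 13% of all genes. The examples that follow were chosen for their footprint values. NDUFB6, an accessory subunit of the membrane arm of complex I, had 573, 496 and 608 footprint FPKM with AZD0095 and 1011, 902 and 980 FPKM with DMSO, or -0.79 ± 0.19 (SE) on the log2 scale (unadjusted p = 0.0015 and adjusted p = 0.49 by limma), while its RNA had 0.06. ATP5PO, the stalk subunit known as OSCP, had 451, 518 and 685 FPKM with AZD0095 and 1087, 760 and 1008 FPKM with DMSO (-0.79 ± 0.23, limma unadjusted p = 0.0048). NDUFS1 had 154, 122 and 202 FPKM with AZD0095 and 71.9, 75.1 and 80.3 FPKM with DMSO (1.03 ± 0.34, limma unadjusted p = 0.011). In these 3 genes the treatments did not overlap. UQCR10, a small complex III subunit, was low in AZD0095 libraries but rested on 9, 4 and 14 reads there and on 16, 6 and 15 reads in DMSO ones (-1.36 ± 0.44, limma unadjusted p = 0.0090). The 27 nuclear genes whose values came to whole reads had a median of 24, 42 and 83 reads with AZD0095 and 31, 16 and 34 with DMSO, which limits what footprints can show for a single gene. The implied window of a gene is the shortest that gives whole reads, so reads of single genes could be off by a common factor in either direction, too many where reads were divided between genes (ATP5MJ and UQCR11 have windows far longer than such small proteins need).

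Translational efficiency, the footprint change set against the RNA change in 1 model over 12 libraries, gave 0 calls among the 95 and among all 6777 genes (limma). At an unadjusted p under 0.05 there were 10 of the 95, 4 higher and 6 lower, against 8.53% of all genes. NDUFB6 had the smallest p (-0.85, limma unadjusted p = 0.00079, adjusted p = 0.40), followed by NDUFS1 (0.99, limma unadjusted p = 0.0038). The model gives each gene 1 spread over both assays, so RNA libraries that lie close together can make the footprint part look too precise. The SE was 0.19 here and in the footprint fit for NDUFB6, and 0.28 against 0.34 for NDUFS1. These p-values may therefore be too small. All 13 MT- genes were negative, with a median of -0.99, and 1 of the 13 reached an unadjusted p under 0.05. They share their libraries and organelle and are not separate evidence. Mitochondria were removed from the footprint lysates, and these values cannot be told apart from a removal that differed between lysates.

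Footprints set against RNA within DMSO cells gave more calls than the treatment did, over all genes as well as among the 95. This contrast lies between kinds of library, so its counts and those of the treatment are not a like comparison. Each library was centred on its median gene, so a value is relative to the typical listed gene. Here too the model gives each gene 1 spread over both assays, which can make the footprint part look too precise. Of the 95 genes 67 had more footprints per RNA than that gene and 12 had fewer (limma, adjusted p under 0.05), against 21.6% higher and 21.6% lower over all genes (43.2% in all). The 82 nuclear genes gave 64 higher and 4 lower with a median log2 value of 1.34, and the 13 MT- genes 3 higher and 8 lower with a median of -1.31. Mitochondrial ribosomal protein genes, also nuclear, gave 35 higher and 9 lower of 73 with a median of 0.52. At the scale as deposited, where footprint values run higher than RNA values throughout, the split among the 95 was 83 higher and 4 lower, and among all genes 3997 higher and 234 lower.

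**Figure D5:**
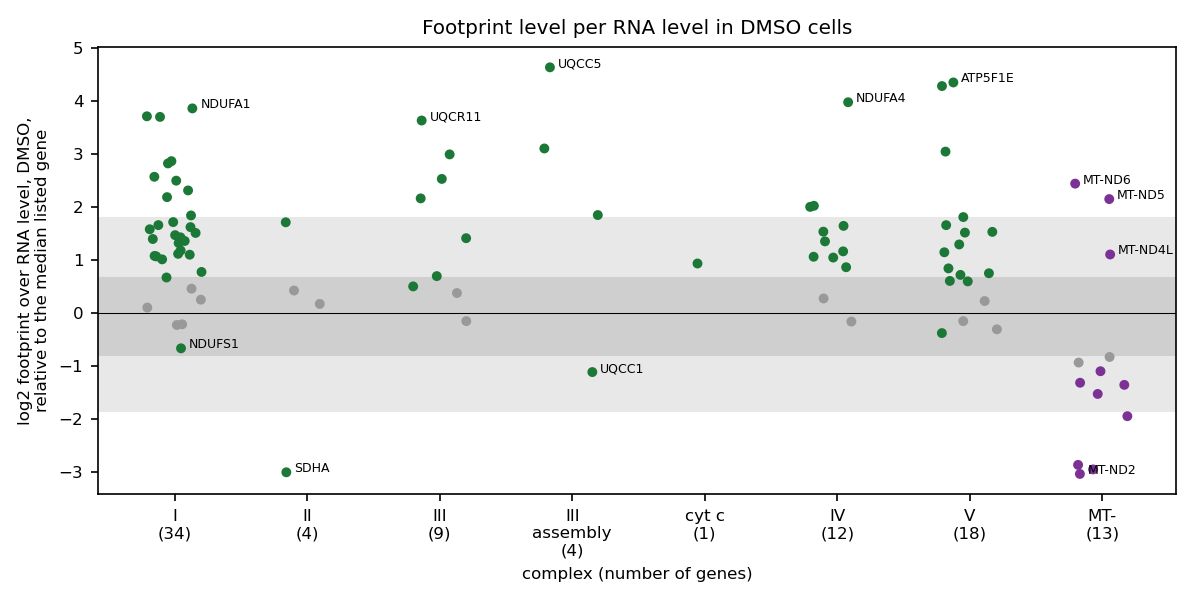
Log2 footprint level over RNA level in DMSO libraries, relative to the median of all listed genes, for each of the 95 genes by complex. Coloured points passed the test (adjusted p under 0.05) and grey points did not, and grey bands hold the middle 50% and 90% of all genes; most nuclear genes lie above 0, SDHA lies at -3.0 and MT-ND5 and MT-ND6 stand apart from the other MT- genes.

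By complex the median log2 value was 1.41 for complexes I and III, 0.30 for complex II, 2.48 for the UQCC genes, 1.26 for complex IV and 1.00 for complex V. The highest values belonged to genes of small proteins. UQCC5 reached 4.63 ± 0.30 (SE), with 362, 197 and 344 footprint FPKM against 3.09, 3.88 and 5.96 RNA FPKM in DMSO libraries. ATP5F1E reached 4.35 with 1091, 404 and 1265 footprint FPKM, and ATP5ME, a small membrane subunit, reached 4.28. NDUFA4 had 3.98, NDUFA1 3.86 with 2569, 2122 and 2492 footprint FPKM, NDUFA13 3.71, NDUFB6 3.70 and UQCR11 3.63. The lowest nuclear gene was SDHA, at -3.0 ± 0.33 (limma adjusted p = 1.0e-05), with 12.9, 22.8 and 16.5 footprint FPKM against 59.05, 64.4 and 63.5 RNA FPKM in DMSO libraries. SDHA has pseudogenes of high similarity, and reads that fit several places may be lost or shared in ways the sources used here do not give. The other 3 nuclear genes called lower were UQCC1 (-1.11), NDUFS1 (-0.66) and ATP5F1C, the gamma subunit (-0.38). At the deposited scale NDUFS1 had 0.52.

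The 16 genes not called included NDUFB1, SDHB, SDHC, UQCRC2, UQCRH, COX6A1, COX7A2, ATP5F1B, ATP5MK, ATP5PB, MT-CYB and MT-ND4. COX6A1 and ATP5F1B, the nuclear genes with the highest RNA levels, stood at 0.28 and -0.15. Length moved with this measure. Among genes with whole reads the median log2 value was 0.82 for implied windows under 500 bases (195 genes) and 0.36 between 500 and 1000 (388 genes). It was -0.39 between 1000 and 2000 (397 genes) and -0.86 between 2000 and 3000 (150 genes). No longer window was tried, so longer genes are missing. The 3 MT- genes among the 1133 were left out. Some implied windows may be multiples or fractions of the true one, so these bins are approximate. Of the 27 nuclear genes of the chain with whole reads, 20 had windows under 500 bases, with a median of 1.48, and the others were too few and their windows too uncertain to compare by length. The length by which RNA values were scaled is not stated, and its part in the level of short genes was not tested.

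Within the organelle the order of footprints differed from that of RNA. MT-ND6, the only gene of the 13 encoded on the opposite strand, had 10785, 8578 and 6046 footprint FPKM but 530, 814 and 689 RNA FPKM in DMSO libraries, a log2 value of 2.44 ± 0.40 (limma adjusted p = 0.00032). MT-ND5 had 21304, 21396 and 13881 footprint FPKM against 1568, 2194 and 1798 RNA FPKM (2.15 ± 0.40, limma adjusted p = 0.00086), and MT-ND4L had 1.11 (limma adjusted p = 0.042). All 3 belong to the pairs whose reads were divided between neighbours, and their RNA levels carry the unsettled choice between total and polyA RNA. At the other end were MT-ND2 (-3.03), MT-ATP6 (-2.95) and MT-CO2 (-2.86), the last with 4065, 3798 and 3282 footprint FPKM against 9443, 13344 and 13200 RNA FPKM. MT-ND2 and MT-CO2 are among the genes counted in whole reads. Since mitochondria were removed from the footprint lysates and not from the RNA, the negative median of the 13 cannot be told apart from that removal. Footprints of the 13 come from the same lysates, but their order per RNA level also rests on separate RNA libraries. The part of divided reads and of the kind of RNA in that order was not tested.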

How the data were processed

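RNA-seq and ribosome profiling libraries, 3 per treatment and assay, were grouped by their labels. The authors deposited FPKM values for 6785 genes per library; 8 repeated entries were removed. Fastp, Bowtie2, STAR and hg38 are named in the submitters' processing notes, while no source used here names the counter, the annotation or the way FPKM was computed. Titles of RNA libraries say total RNA and their molecule label polyA RNA, and which applies is not settled.

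From the deposited FPKM, log2(FPKM + 1) was fitted with limma 3.58.1 in R 4.3.3 (two-sided, variance trend, Benjamini-Hochberg adjustment over all 6777 genes). RNA and footprints had a fit each, and translational efficiency and the footprint level per RNA level in DMSO came from 1 model over 12 libraries, with median centring for the footprint level per RNA level. Fold changes on this scale understate those of low genes. Footprint depth was recovered from the steps in FPKM (107087 to 501351 reads, whole within 0.03 of a read, checked on simulated data), with whole reads for 1133 genes. RNA depth is unknown. The window lengths used for MT- reads were chosen after seeing the data.

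Members were found by symbol, and locations and promoters came from RefSeq, GRCh38.p14, matched by symbol. Members and lists were chosen with earlier results of these data known. Named were all MT- genes, in each complex the 3 smallest RNA p-values, the extremes of level and of footprint per RNA, and core subunits; the many genes called for footprint per RNA are given mainly as counts. Alternatives changed the pseudocount, filter, variance trend, scaling, normalization, replicate terms and libraries. Many small subunits have pseudogenes, so levels of single genes may be shared or lost in counting.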

Additional observations from a re-analysis of the deposited data

How the results depend on the processing

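The counts of 0 calls in RNA among the 95 genes moved with the settings: 1 without a variance trend (UQCC3), 8 with replicate 1 of both treatments as a term, 3 with the MT- mean of each library held equal (chosen after seeing the data), and 0 to 5 with single libraries left out. It stayed at 0 with a pseudocount of 0.1, a mean FPKM of at least 5, median centring, rescaling without MT- genes and quantile normalization. Over all genes the RNA count of 545 became 1660 with replicate 1 as a term and 100 to 1112 with single libraries left out. A fit with a replicate block gave 9 calls among the 95 and 1622 over all genes in RNA, 0 in footprints and in translational efficiency, and 82 in footprint level per RNA level. The block rests on shared replicate numbers that no label ties to a shared culture, and the pairing check was not met. That check correlated, over all genes, how far each library lay from its group mean, and not the levels themselves. Deviations of same-numbered libraries of the 2 treatments correlated at 0.622, 0.0857 and 0.489 in RNA and at 0.00878, -0.0223 and 0.0913 in footprints. Those of RNA AZD0095 replicate 2 correlated best with those of DMSO replicate 3 (0.303). Footprint counts stayed at 0 in every setting run. Translational efficiency over all genes gave 1 call without a variance trend and 0 to 4 with single footprint libraries left out. For footprint level per RNA level, calls among the 95 ranged from 72 to 87. At the scale as deposited MT-ND3 turned to 0.087 and NDUFS1 to 0.52, both called lower after centring. The filter on low values is limited by the deposited list, which holds only genes above 1 FPKM in every library. Few reads per nuclear gene limit footprint comparisons. The cause of these differences was not tested.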
